A study of Mus musculus with 8 samples.

Results

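Haematopoietic stem and progenitor cells (KSL cells) were compared with granulocytic cells (Gr-1+/Mac-1+ cells, here Gr cells) in the bone marrow of control mice. The comparison used the 4 control arrays, 2 of KSL and 2 of Gr cells, out of 8 arrays in all, and the members were taken by their labels alone. All mice were 6 weeks old and of a mixed background given as B6/CBA and others. The cells were sorted and not treated afterwards. The other 4 arrays were KSL and Gr cells of Vav-Etv2 mice, in which a transgene for Etv2 is turned on by a Vav-iCre transgene, that is, by a recombinase under a promoter of blood cells. The labels call the controls only control and do not say whether these mice carried either transgene alone. Nor do they say whether an array was made from separate animals or a pool. Each p-value therefore rests on the spread among the arrays alone, which may be technical between KSL arrays. Sex markers, given below, differ between the Gr arrays of each genotype, so those came from different animals and their spread includes sex.

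KSL is the usual name for marrow cells that carry Kit, the receptor for stem cell factor, and Sca-1 (Ly6a) and lack the markers of mature lineages. The fraction holds haematopoietic stem cells and multipotent progenitors. Gr-1 antibodies bind Ly6g and Ly6c, and Mac-1 is the integrin of Itgam and Itgb2, so Gr-1+/Mac-1+ marrow holds neutrophils at several stages of maturation, with some monocytes. As neutrophils mature they make their granules in order: primary granules with Mpo and serine proteases at the promyelocyte stage, then secondary granules with Ltf and Ngp, then tertiary granules with Mmp9, while division stops. Levels below are log2 signals relative to the array's 75th percentile, and every difference is KSL minus Gr, so a positive value is higher in KSL cells. Where a pair of levels is given for a cell type, the array of replicate 1 comes first, and the latter Gr value is that of the array labelled Gr control 2. A gene is called at a Benjamini-Hochberg adjusted p below 0.05 in limma, a linear model across all features. Levels of different probes are not compared with each other. In bulk samples, fewer cells of a type and less RNA per cell cannot be told apart.

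The 75th percentile used for scaling lay at signals of 195 and 266 for the KSL control arrays and of 136 and 300.2 for the Gr control arrays. Between 48.4% and 56.1% of spots were well above background on these arrays. The KSL arrays lay closer to each other than the Gr arrays did: over all features, the log2 difference between the 2 arrays of a group had an SD of 0.556 for KSL and 1.05 for Gr. All arrays shared 1 slide and 1 scan, but KSL samples filled slide row 1 and Gr samples slide row 2, so slide row and cell type cannot be told apart. Xist, the RNA of the inactive X chromosome, lay at 2.12 and 2.41 on the KSL arrays, at 0.27 on Gr control 1 and not above background (-7.10) on the array labelled Gr control 2. The Y-linked gene Ddx3y was above background on the array labelled Gr control 2 only (1.39), so the Gr arrays differ in sex and the KSL arrays match Gr control 1. Etv2 was not above background on either KSL array or on Gr control 1 (-4.37, -4.73 and -4.48), but was above background on the array labelled Gr control 2 (-0.54), which goes against that label. Each direction below therefore rests partly on the array labelled Gr control 2, and the number of calls with and without it is given next.

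Of 23226 features, 3770 were called higher in KSL cells and 4292 higher in Gr cells by limma, which are 16.2% and 18.5% of all features and 34.7% together. Each count of list members called in controls below is to be read beside these shares. The median difference over all features was -0.13. The calls were large: 2294 of those higher in KSL and 2071 of those higher in Gr differed by 4-fold or more, and 653 and 435 by 16-fold or more. For 862 of the KSL calls and 650 of the Gr calls the probe stood clear of background on neither array of the lower group, so only a lower bound can be given for their folds. The direction split depended on the scaling: 46.8% of calls were higher in KSL as reported, 35.9% with each array's median in place of its 75th percentile, and 63.8% with the percentile taken over probes above background on all arrays. Those scalings moved the median of all features to -0.30 and 0.19. No call changed direction under either. The number called was 9383 without the array labelled Gr control 2, 4010 without Gr control 1, 2232 without KSL control 1 and 2213 without KSL control 2. A group left with 1 array was assumed to vary like the other groups. Without either KSL array, 2172 of the 8062 calls (26.9%) were still called in the same direction, and 0 changed direction. Ranges of the arrays that do not overlap carry little weight in a design of 2 against 2, since 75.3% of all features show that, 34.8% with KSL higher and 40.5% with Gr higher.

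**Figure D1:**
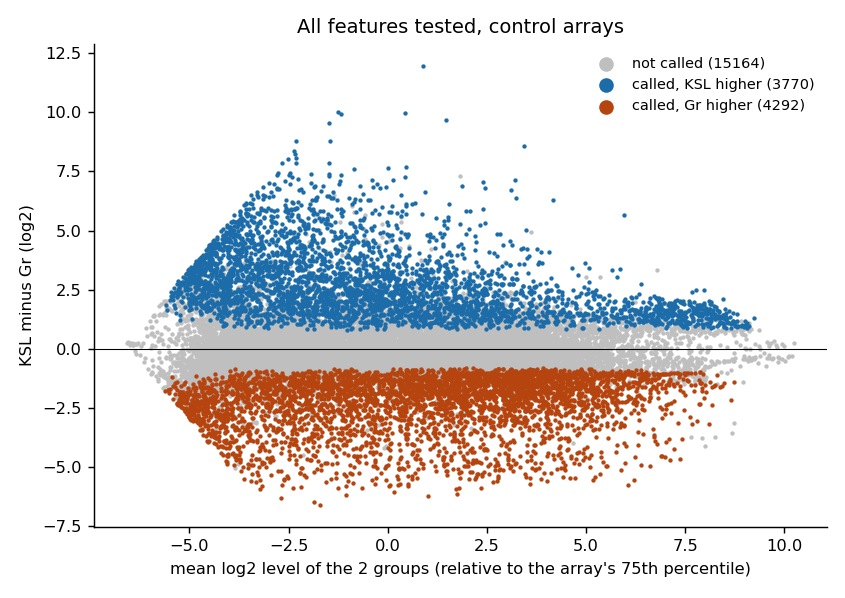
Each point is 1 of 23226 features on the control arrays, with the mean log2 level of both groups on the horizontal axis and KSL minus Gr (log2) on the vertical axis. The 3770 features called higher in KSL (blue) reach fitted differences up to 11.96, and the 4292 called higher in Gr (red) reach 6.59 in size.

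The sort markers came first as a check of the labels, beside the progenitor genes Cd34 and Meis1. Kit lay at 5.15 and 5.15 in KSL and 2.04 and 1.84 in Gr, a difference of 3.21 (SE 0.38, limma adjusted p = 0.00256). Cd34, a surface sialomucin of progenitors, lay at 7.26 and 7.39 in KSL and 0.25 and 1.77 in Gr (difference 6.31, SE 0.53, limma adjusted p = 0.00109), and Meis1, the cofactor of Hox proteins in stem cells, at 4.91 and 5.10 in KSL and -1.55 and -0.14 in Gr (difference 5.84, SE 0.50, limma adjusted p = 0.00113). All 3 genes were higher in KSL, but of them only Kit is a marker in the name KSL. Sca-1, the other marker in that name, was not higher in KSL. Ly6a lay at 3.65 and 3.59 in KSL and 6.18 and 4.48 in Gr. Its difference of -1.71 (SE 0.76, limma adjusted p = 0.121) was not called and points to Gr cells. The Ly6a probe shares at most 6 bases in a row with the probes for Ly6c1, a gene of the same family.

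On the Gr side, Itgb2 lay at 2.62 and 2.65 in KSL and 7.52 and 6.49 in Gr (difference -4.37, SE 0.53, limma adjusted p = 0.00276), and Ly6c1, which encodes a Gr-1 epitope family member, at 6.51 and 6.50 in KSL and 10.10 and 9.30 in Gr (difference -3.19, SE 0.59, limma adjusted p = 0.00960). The gene Itgam had 3 probes. The brightest of them, which stands for the gene, read 5.19 and 4.71 in KSL and 7.14 and 5.97 in Gr, with a difference of -1.61 (SE 0.55, limma adjusted p = 0.0593) that was not called. The other Itgam probes read 1.27 and 1.40 against 5.40 and 4.63, and -2.42 and -2.74 against 1.31 and -0.11. Tested as probes by themselves, both of these were called higher in Gr. In the same order, they gave a difference of -3.68 (limma adjusted p = 0.0270 over all probes) and of -3.18 (limma adjusted p = 0.0157 over all probes). All 3 were higher on each Gr array than on each KSL array. No probe was matched to Ly6g or Ly6c2 by name.

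**Figure D2:**
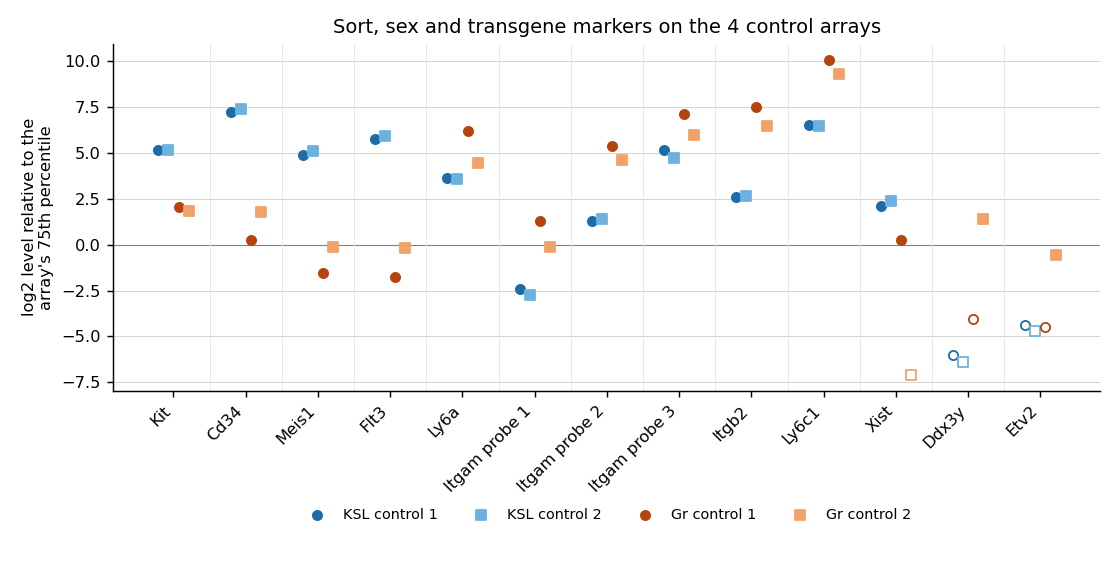
Log2 level relative to the array's 75th percentile (vertical axis) of sort, progenitor, sex and transgene markers on the 4 control arrays, with open symbols where a probe was not well above background. Kit, Cd34, Meis1 and Flt3 are higher on both KSL arrays, the 3 Itgam probes, Itgb2, Ly6c1 and also Ly6a are higher on both Gr arrays, and Etv2 is above background only on the array labelled Gr control 2.

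Transcription factors of stem and progenitor cells were mostly higher in KSL cells. Of 30 tested, 20 were called higher in KSL and 1 higher in Gr, against 16.2% and 18.5% of all features, with a median difference of 3.31 (3.25 with genes not above background in a group set at their lower bounds). Mycn, a MYC family member, lay at 2.33 and 2.54 in KSL and -5.98 and -4.83 in Gr (difference 7.84, SE 0.51, limma adjusted p = 0.000717). Gata2, a zinc finger factor needed for stem cells, lay at 3.58 and 3.55 in KSL and -2.31 and 0.75 in Gr (difference 4.34, SE 1.34, limma adjusted p = 0.0456). The bZIP factor Hlf lay at 4.63 and 4.53 in KSL and 0.02 and -0.97 in Gr (difference 5.06, SE 0.73, limma adjusted p = 0.00445). The Gr arrays were about 3 log2 apart for Gata2 and 1 apart for Hlf, and neither reached the KSL arrays. Mecom lay at -2.71 and -3.84 on the KSL arrays and was not above background on the Gr arrays (at least 2.17-fold higher, limma adjusted p = 0.0417). Among the others called, the differences were 5.36 for the zinc finger factor Zfp521, 5.33 for the RNA-binding protein Msi2 and 4.43 for Myct1. Fli1, an ETS factor, was the member called higher in Gr, at 2.82 and 3.01 in KSL and 4.43 and 3.95 in Gr (difference -1.28, SE 0.30, limma adjusted p = 0.0205). Runx1 (0.22) and Lyl1 (-0.06), chosen here because they lie nearest to 0, were not called.

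Surface and signalling genes of stem and progenitor cells had the highest median of the 40 lists: 25 of 32 were called higher in KSL, 0 in Gr, and the median difference was 5.00 (4.39 with lower bounds). Flt3, the receptor of lymphoid-primed progenitors, lay at 5.75 and 5.95 in KSL and -1.77 and -0.16 in Gr (difference 6.81, SE 0.59, limma adjusted p = 0.00118). Procr, the endothelial protein C receptor used to isolate stem cells, lay at 2.10 and 2.35 in KSL and -5.13 and -3.17 in Gr (difference 6.38, SE 0.61, limma adjusted p = 0.00151). Both were more than 5 log2 apart between every KSL and every Gr array. Tek, the angiopoietin receptor Tie2, was above background on KSL arrays only, at -2.03 and -1.91 (at least 5.35-fold higher, limma adjusted p = 0.0185). Ctla2a and Ctla2b, near-identical genes whose probes may read both, differed by 7.12 and 6.89. Cd27, a TNF receptor, differed by 6.33. The junction protein Esam was above background on the KSL arrays only (at least 49.9-fold higher, limma adjusted p = 0.0121).

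Genes of the Hoxa and Hoxb clusters, which encode homeodomain factors of progenitor self-renewal, were called higher in KSL for 11 of 15 members and higher in Gr for 0, with a median of 3.49 (2.27 with lower bounds). Hoxa9 lay at 0.73 and 0.62 in KSL and -1.77 and -2.89 in Gr (difference 3.00, SE 0.40, limma adjusted p = 0.00357), and Hoxa7 at 3.47 and 3.71 in KSL and -3.60 and -2.24 in Gr (difference 6.51, SE 0.48, limma adjusted p = 0.000849). Hoxa5, Hoxa10 and Hoxa3 were above background on both KSL arrays and on no Gr array, and were at least 3.91 log2, at least 3.68 log2 and at least 5.08 log2 higher (limma adjusted p = 0.00151, 0.00221 and 0.00124). Hoxa9 and Hoxa7 were above background on all 4 control arrays. With probes required above background on all 8 arrays, 2 members were called higher in KSL.

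Lymphoid priming genes were mostly higher in KSL cells. Dntt, the terminal transferase that adds bases to antigen receptor joints, lay at 7.71 and 7.75 in KSL and -0.30 and -1.41 in Gr, a difference of 8.58 (SE 0.65, limma adjusted p = 0.000913). Its probe was above background on all 4 arrays. Of 21 lymphoid priming genes, 13 were called higher in KSL and 3 higher in Gr (median 2.75). Il7r, the interleukin 7 receptor, lay at 1.56 and 1.66 in KSL and -2.21 and -2.90 in Gr (difference 4.16, SE 0.51, limma adjusted p = 0.00285), and the factor Sox4 at 4.96 and 4.83 in KSL and -0.83 and -1.09 in Gr (difference 5.85, SE 0.39, limma adjusted p = 0.000741). Both were separated by more than 3 log2 between the nearest arrays. Rag1, a recombinase subunit, read -0.82 and -0.61 in KSL and -2.59 and -4.14 in Gr (difference 2.64, SE 0.87, limma adjusted p = 0.0537) and was not called, and Satb1 differed by 0.72 and was not called. Among those called higher in Gr were the ETS factor Ets1 (-2.15) and the receptor Notch1 (-1.88). Of 22 T and NK cell genes, 11 were called higher in KSL and 1 in Gr (median 1.68), led by Gata3 (4.59), Lck (4.10) and Tcf7 (3.85), but the T cell receptor subunits Cd3e (0.79), Cd3g (1.51) and Cd3d (-2.17) were not called. Of 18 B lineage genes, 3 were called, all higher in KSL: Cd72 (3.32), Blnk (3.32) and Cd79b (1.92). That count is near the 16.2% of all features called higher in KSL, but all 18 differences were positive. Their median was 1.47, against -0.13 over all features. Pax5, the factor that defines B cells, was not above background on any control array. The lymphoid priming count called higher in Gr was 0 without KSL control 1 or KSL control 2 and 1 without Gr control 1. The counts called higher in KSL moved with single arrays: for lymphoid priming 7 without KSL control 1 or KSL control 2, for T and NK genes 5 without KSL control 2, and for B lineage genes 0 without KSL control 1 or KSL control 2 and 8 without Gr Vav-Etv2 1 or Gr Vav-Etv2 2.

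Erythroid and megakaryocyte genes were called in both directions, more often higher in KSL. Gata1, the factor shared by both lineages, lay at 3.00 and 3.18 in KSL and -0.44 and -0.54 in Gr (difference 3.58, SE 0.36, limma adjusted p = 0.00162), and Klf1, the erythroid Kruppel-like factor, at 0.37 and 0.19 in KSL and -2.92 and -4.53 in Gr (difference 4.01, SE 0.64, limma adjusted p = 0.00606). Epor, the erythropoietin receptor, lay at 1.69 and 1.66 in KSL and -1.47 and -3.35 in Gr (difference 4.08, SE 0.79, limma adjusted p = 0.0109). Of 20 erythroid genes, 8 were called higher in KSL and 1 in Gr (median 1.89), while Alas2 (0.57), a late gene of haem synthesis, was not called. Of 22 megakaryocyte and platelet genes, 12 were called higher in KSL and 4 in Gr (median 3.20, or 2.79 with lower bounds). The chemokine Pf4 lay at 5.79 and 6.08 in KSL and 0.48 and -2.71 in Gr (difference 7.05, SE 2.01, limma adjusted p = 0.0355) and Vwf, von Willebrand factor, at 3.33 and 3.32 in KSL and -1.58 and -3.20 in Gr (difference 5.71, SE 1.30, limma adjusted p = 0.0181). The Gr arrays lay over 3 log2 apart for Pf4 and over 1 log2 apart for Vwf, each with Gr control 1 above the array labelled Gr control 2. Gp9 differed by 2.76, and Itga2b (2.81, limma adjusted p = 0.0741) was not called. The megakaryocyte members called higher in Gr were Thbs1 (-3.70), Cd9 (-2.80), Rap1b (-1.76) and Fli1 (-1.28), a count that was 0 without KSL control 1 or KSL control 2 and 1 without Gr control 1. The megakaryocyte count called higher in KSL was 6 without KSL control 1 and 7 without KSL control 2, and the erythroid count was 5 without KSL control 1 and 4 without KSL control 2.

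Of 25 endothelial genes, 12 were called higher in KSL and 1 higher in Gr (median 2.05, or 1.70 with lower bounds). Those called included genes that stem cells share with endothelium: Robo4 lay at 2.90 and 3.03 in KSL and -4.88 and -4.39 in Gr (difference 7.60, SE 0.69, limma adjusted p = 0.00136), Egfl7 at 5.99 and 6.03 in KSL and 0.75 and 1.18 in Gr (difference 5.04, SE 0.59, limma adjusted p = 0.00249), and Eng, the TGF-beta coreceptor endoglin, at 2.47 and 2.30 in KSL and -1.80 and -1.16 in Gr (difference 3.87, SE 0.41, limma adjusted p = 0.00184). The defining junction gene Cdh5 was above background on KSL control 2 only (KSL levels -3.74 and -3.65) and was not called, and Kdr (-0.01), Flt1 (-1.76) and Pecam1 (0.86) were not called either. Lyve1 (at least 3.15 log2 higher) was the endothelial gene called higher in Gr. Among 12 imprinted genes, 5 were called higher in KSL, among them Dlk1 at 2.00 and 1.77 in KSL and -4.91 and -3.92 in Gr (difference 6.30, SE 0.63, limma adjusted p = 0.00165) and Cdkn1c at 0.45 and 0.54 in KSL and -1.64 and -1.71 in Gr (difference 2.18, SE 0.29, limma adjusted p = 0.00365). H19 (0.28) was not called. Igf2r, the receptor that clears insulin-like growth factor 2, was called higher in Gr (-1.81). The endothelial count called higher in KSL was 4 without KSL control 1 or KSL control 2 and 6 without Gr control 1.

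The 12 largest fitted differences of named genes in each direction extend these groups. A gene given with a bound has no known place among them. Higher in KSL were Myl10, a myosin light chain, at 5.35 and 5.46 and below background on both Gr arrays (at least 890-fold), the kappa segment Igkv5-39 (at least 288-fold), Dntt, Slc35d3 (at least 71.8-fold), Pdgfrb (at least 59.1-fold), Trpc6 (at least 50.8-fold), Mycn, Mid1 (7.70), Robo4, Esam (at least 49.9-fold), Tmem121 (at least 70.7-fold) and Bex1 (7.34). Each of these folds is for KSL over Gr. Igkv5-39 lay at 3.67 and 3.89 on the KSL control arrays, was above background on 1 of the Vav-Etv2 KSL arrays (-3.98) and on no Gr array, and the test of the difference between genotypes did not call it (limma adjusted p = 0.511). In Vav-Etv2 mice the fitted differences of the other 11 ranged from 2.03 to 7.98. Higher in Gr were Ccr1l1, a chemokine receptor-like gene, at 2.09 and 1.07 and below background on both KSL arrays (at least 53.3-fold), the lipid droplet protein Plin5 (at least 46.8-fold), Tarm1 (at least 24.5-fold), the chitinase-like Chil4 (-6.12), the cytokine Il1f9 (-6.06), Adtrp (at least 3.91 log2), the protease Asprv1 (-5.90), the activin subunit Inhba (-5.90), Slfn4 (-5.89), Klra17 (-5.88), Olfml2b (-5.81) and the protease Plau (at least 14.7-fold). In Vav-Etv2 mice all 12 were also lower in KSL, with fitted differences from -7.42 to -4.03.

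Transcription factors of granulocytes were higher in Gr cells for 15 of 22 members and higher in KSL for 1 (median -2.26). Cebpe, which drives secondary granule formation, lay at 3.39 and 3.77 in KSL and 8.95 and 7.85 in Gr (difference -4.82, SE 1.01, limma adjusted p = 0.0140), and Cebpd, a relative of late neutrophils, at 2.98 and 3.21 in KSL and 8.16 and 7.20 in Gr (difference -4.58, SE 0.43, limma adjusted p = 0.00145). Spi1, which encodes PU.1, lay at -0.32 and -0.06 in KSL and 3.18 and 2.55 in Gr (difference -3.06, SE 0.32, limma adjusted p = 0.00190), and Gfi1, a repressor needed for neutrophils, at 2.66 and 3.02 in KSL and 4.24 and 4.64 in Gr (difference -1.60, SE 0.39, limma adjusted p = 0.0225). All 4 were higher on each Gr array than on each KSL array. Cebpa, the factor of granulocyte commitment, read 1.75 and 1.90 in KSL and 1.29 and 2.25 in Gr and was not called (difference 0.06), with the KSL arrays between the Gr arrays. Id1, an inhibitor of helix-loop-helix factors, differed by -3.36, and Mxd1, a MYC antagonist, by -4.80. Runx3 (1.75) was the member called higher in KSL by its brightest probe. Another Runx3 probe, tested by itself, was not called (difference 0.011, limma adjusted p = 0.983 over all probes). The number called higher in Gr was 6 without KSL control 1, 7 without KSL control 2 and 8 without Gr control 1.

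Granule genes were taken as a primary list and a secondary and tertiary list. The stage and granule of each member were not checked here. Of 26 secondary and tertiary granule genes, 20 were called higher in Gr and 0 higher in KSL, the median difference was -4.92, and all 26 differences were negative. Of 18 primary granule genes, 6 were called higher in Gr and 1 higher in KSL, with a median of -0.89. The difference between the lists was not tested. Probe sequences are shown for 5 granule and alarmin genes whose probe of 60 bases has a reading frame free of stop codons over its whole length. They are examples, since the contrast between the lists rests on the probes of all their members. S100a8 is in neither granule list. The probes, on build mm9, map to chr10:79343869-79344685 for Prtn3, a span longer than the probe, chr10:116719175-116719234 for Lyz2, chr9:110942873-110942932 for Ltf, chr9:110324266-110324814 for Ngp, again longer than the probe, and chr3:90473778-90473837 for S100a8, and are printed 5′ to 3′ as in the array files, in lower case.
Prtn3: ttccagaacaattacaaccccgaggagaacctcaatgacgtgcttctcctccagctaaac
Lyz2: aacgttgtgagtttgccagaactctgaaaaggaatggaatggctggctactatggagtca
Ltf: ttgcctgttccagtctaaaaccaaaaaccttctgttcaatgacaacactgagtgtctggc
Ngp: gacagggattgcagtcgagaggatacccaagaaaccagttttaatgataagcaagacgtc
S100a8: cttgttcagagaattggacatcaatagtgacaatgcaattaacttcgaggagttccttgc

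Mpo, the myeloperoxidase of primary granules, lay at 8.68 and 8.63 in KSL and 6.83 and 9.13 in Gr, a difference of 0.67 (SE 0.96, limma adjusted p = 0.605). Elane, neutrophil elastase, lay at 4.78 and 4.76 in KSL and 4.12 and 7.28 in Gr (difference -0.93, SE 1.17, limma adjusted p = 0.558). Prtn3, proteinase 3, read 3.78 and 3.95 in KSL and 2.64 and 5.99 in Gr (difference -0.45, SE 1.13, limma adjusted p = 0.775). Ctsg, cathepsin G, read 6.61 and 6.74 in KSL and 4.29 and 7.37 in Gr (difference 0.85, SE 1.08, limma adjusted p = 0.562). For all 4 the KSL arrays lay between Gr control 1, the lowest, and the array labelled Gr control 2, the highest, and none was called. Lyz2, the myeloid lysozyme, was called higher in Gr, at 3.32 and 3.55 in KSL and 9.35 and 8.63 in Gr (difference -5.55, SE 0.59, limma adjusted p = 0.00187). Haptoglobin, Hp, lay at 5.01 and 5.09 in KSL and 10.21 and 9.21 in Gr (difference -4.66, SE 0.91, limma adjusted p = 0.0112). Clec11a (2.58) was the listed gene called higher in KSL. Whether Hp and Clec11a belong to primary granules was not checked, so neither call speaks for that stage. The primary granule count called higher in Gr was 3 without KSL control 1 or KSL control 2.

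Ltf, the lactoferrin of secondary granules, lay at 6.24 and 6.55 in KSL and 10.68 and 9.56 in Gr (difference -3.72, SE 1.27, limma adjusted p = 0.0598). Camp, the cathelicidin, lay at 7.16 and 7.21 in KSL and 10.80 and 9.79 in Gr (difference -3.11, SE 1.33, limma adjusted p = 0.109), and Lcn2, the siderophore-binding lipocalin, at 6.89 and 6.90 in KSL and 11.13 and 9.81 in Gr (difference -3.57, SE 1.52, limma adjusted p = 0.108). Ngp, neutrophilic granule protein, lay at 5.84 and 6.07 in KSL and 10.64 and 9.44 in Gr (difference -4.08, SE 1.37, limma adjusted p = 0.0577). These 4 genes were 2 to 5 log2 above the KSL arrays on both Gr arrays, and the adjusted p missed 0.05 in the fit over all 8 arrays. With only the 4 control arrays all 4 were called, at limma adjusted p = 0.0106, 0.0131, 0.0137 and 0.00954. Mmp9, the gelatinase of tertiary granules, lay at 1.07 and 1.38 in KSL and 7.65 and 5.95 in Gr (difference -5.58, SE 1.21, limma adjusted p = 0.0155). Adam8, a membrane protease, lay at 2.57 and 2.85 in KSL and 8.95 and 7.03 in Gr (difference -5.28, SE 0.77, limma adjusted p = 0.00462). The 6 members not called were Ngp (-4.08), Chil3 (-3.77), Ltf (-3.72), Retnlg (-3.71), Lcn2 (-3.57) and Camp (-3.11). Stfa1, Stfa2, Stfa2l1 and Stfa3, stefins that can share probes, differed by -5.15, -5.13, -4.88 and -4.64. In Vav-Etv2 mice, whose arrays were not used for these calls other than in the shared spread, 26 of 26 were called higher in Gr, against 13.8% of all features there. The control count was 5 without KSL control 1 or KSL control 2 and 6 without Gr control 1, and 26 without either KSL Vav-Etv2 array.

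**Figure D3:**
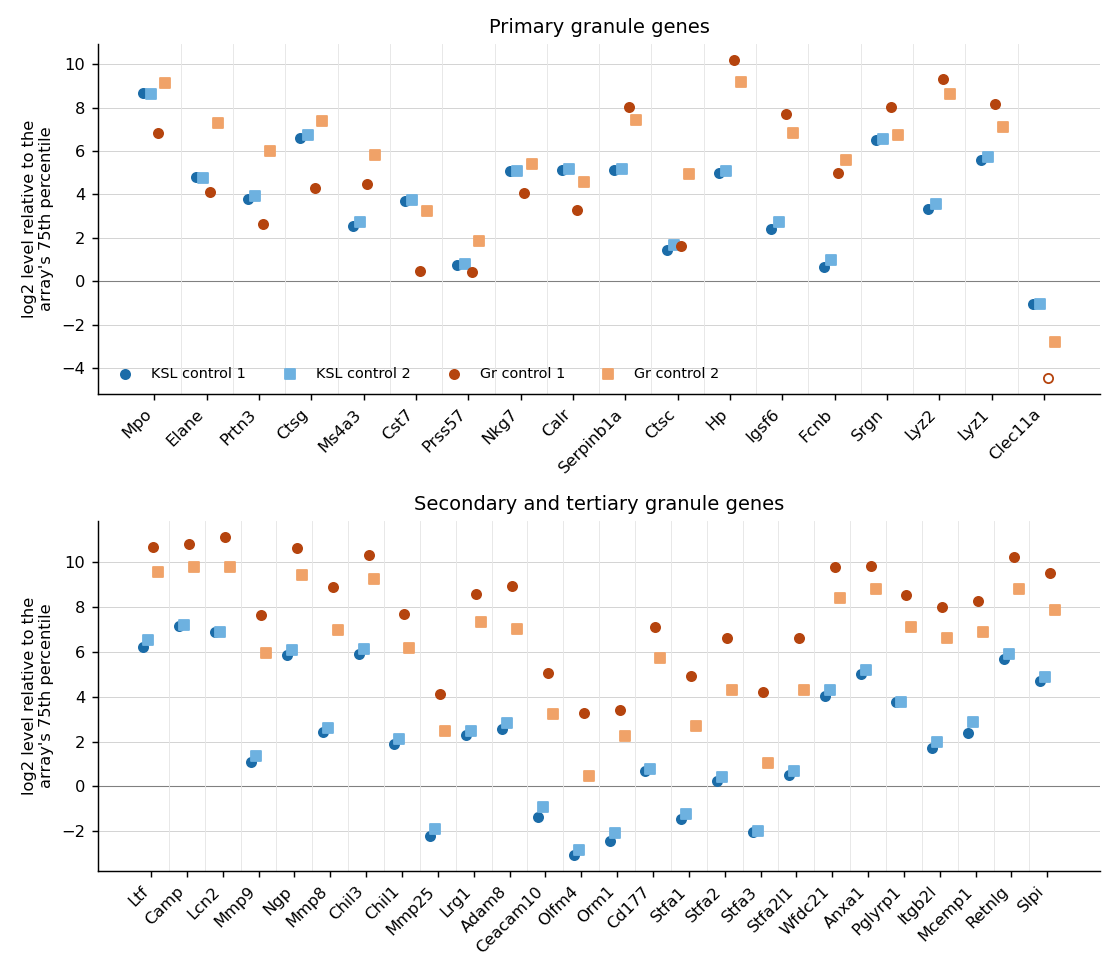
Log2 level relative to the array's 75th percentile (vertical axis) of each tested primary granule gene (top) and secondary or tertiary granule gene (bottom) on the 4 control arrays, with open symbols where the probe was not well above background. For Mpo, Elane, Prtn3 and Ctsg the Gr arrays lie on either side of the KSL arrays, while all 26 secondary and tertiary genes are highest on Gr control 1, next on the array labelled Gr control 2 and lowest on the KSL arrays.

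Receptors and signalling proteins of neutrophils were called higher in Gr for 36 of 37 members and higher in KSL for 0 (median -4.53). The chemokine receptor Cxcr2 lay at 0.59 and 0.70 in KSL and 6.31 and 4.86 in Gr (difference -4.94, SE 0.97, limma adjusted p = 0.0112). Fpr1 and Fpr2, formyl peptide receptors, differed by -5.40 and -5.40. Fcgr3, an IgG receptor, lay at -0.04 and 0.13 in KSL and 5.56 and 4.45 in Gr (difference -4.96, SE 0.43, limma adjusted p = 0.00118), and Clec7a, the beta-glucan receptor dectin-1, at 1.35 and 1.54 in KSL and 6.84 and 5.72 in Gr (difference -4.84, SE 0.50, limma adjusted p = 0.00175). Each of these was over 3 log2 higher on either Gr array. Csf3r, the G-CSF receptor, had the smallest difference of the list, at 6.84 and 6.69 in KSL and 8.26 and 7.63 in Gr (difference -1.18, SE 0.33, limma adjusted p = 0.0340), and was above background on all 4 arrays. The only member not called was Hcar2 (-3.35, limma adjusted p = 0.0883), of which another probe, tested by itself, was called (difference -4.23, limma adjusted p = 0.0292 over all probes). Csf2rb and Csf2rb2, Mrgpra2a and Mrgpra2b, and Pira2 and Pirb are close relatives whose probes may read each other. The count called was 17 without KSL control 1 and 21 without KSL control 2.

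Enzymes and alarmins of neutrophils were taken as 3 lists. Of 10 genes of the phagocyte oxidase complex, 8 were called higher in Gr (median -3.16). Cybb, its catalytic subunit, lay at 0.78 and 0.87 in KSL and 5.95 and 5.05 in Gr (difference -4.67, SE 0.97, limma adjusted p = 0.0135), and Cyba, the partner subunit, at 5.79 and 5.73 in KSL and 9.36 and 8.43 in Gr (difference -3.13, SE 0.47, limma adjusted p = 0.00494). The cytosolic subunits Ncf1 and Ncf4 differed by -3.83 and -3.64. Of 14 S100 and calcium binding genes, 8 were called higher in Gr (median -1.58), among them S100a6 at 4.66 and 4.76 in KSL and 10.12 and 8.46 in Gr (difference -4.58, SE 0.98, limma adjusted p = 0.0150). The alarmins S100a8, at 8.29 and 8.24 in KSL and 10.17 and 9.14 in Gr (difference -1.38, SE 1.23, limma adjusted p = 0.406), and S100a9, at 9.69 and 9.48 in KSL and 10.66 and 9.59 in Gr (difference -0.54, SE 1.06, limma adjusted p = 0.712), were not called. Both read above 8 log2 on the KSL arrays. Of 15 leukotriene and prostaglandin enzymes, 8 were called higher in Gr (median -2.14): the chain from Alox5 (-4.78) and its activator Alox5ap (-2.93) to Lta4h (-2.15) was higher in Gr, while Ltc4s (1.33) was not called. The counts called higher in Gr were, for the oxidase, 4 without KSL control 1 and 5 without KSL control 2, for S100 genes 2 without KSL control 1 or KSL control 2 and 3 without Gr control 1, and for the leukotriene list 2 without KSL control 1, 3 without KSL control 2 and 5 without Gr control 1.

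Inflammatory and interferon genes were more often called higher in Gr than in KSL. Of 21 inflammasome and cytokine genes, 10 were called higher in Gr and 1 higher in KSL (median -1.21). Il1b, interleukin 1 beta, lay at 0.69 and 1.07 in KSL and 7.34 and 5.31 in Gr (difference -5.45, SE 1.19, limma adjusted p = 0.0157), and Tnf at 0.65 and 0.65 in KSL and 3.35 and 2.15 in Gr (difference -2.10, SE 0.56, limma adjusted p = 0.0295). Il10 was above background on the KSL arrays only, at -3.56 and -2.86 (at least 2.27-fold higher, limma adjusted p = 0.00651). Of 31 interferon response genes, 14 were called higher in Gr and 2 in KSL (median -1.47). Irf7, the factor that amplifies the response, lay at -0.39 and 0.26 in KSL and 2.95 and 2.31 in Gr (difference -2.70, SE 0.36, limma adjusted p = 0.00370). Isg15 (-1.54) and Ifit1 (-1.83) were not called by their brightest probes, while another probe of Isg15, tested by itself, was (difference -1.69, limma adjusted p = 0.0401 over all probes). Immediate early genes, which sorting can induce, were called higher in Gr for 5 and in KSL for 2 of 23 (median -1.20). Over all features the shares called were 18.5% and 16.2%. Fos read 6.14 and 6.12 in KSL and 7.90 and 6.76 in Gr, Jun 7.45 and 7.33 in KSL and 7.25 and 6.16 in Gr and Egr1 5.52 and 5.41 in KSL and 7.58 and 5.24 in Gr, and none of these 3 was called. The part of handling in these levels was not tested. The immediate early count called higher in Gr was 2 without KSL control 1, KSL control 2 or Gr control 1. The counts called higher in Gr were 2 without KSL control 1, 1 without KSL control 2 and 3 without Gr control 1 for inflammasome and cytokine genes, and 3 without KSL control 1 or KSL control 2 and 7 without Gr control 1 for interferon genes.

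Markers of other cells that the gates could hold were taken by list. Of 24 monocyte and macrophage genes, 10 were called higher in Gr and 0 in KSL (median -2.11). Csf1r, the M-CSF receptor, lay at 4.18 and 4.28 in KSL and 6.49 and 6.78 in Gr (difference -2.40, SE 0.30, limma adjusted p = 0.00308), and Adgre1, which encodes F4/80, at -1.51 and -1.19 in KSL and 2.92 and 2.92 in Gr (difference -4.27, SE 0.58, limma adjusted p = 0.00380). Ccr2, the receptor of inflammatory monocytes, read -0.07 and 0.20 in KSL and 1.59 and 4.97 in Gr (difference -3.21, SE 1.10, limma adjusted p = 0.0611) and was not called, and the Gr arrays lay over 3 log2 apart. The median level of the list was -1.16 and -1.10 in KSL and 1.22 and 0.87 in Gr. Mast cell, basophil and eosinophil genes were called higher in Gr for 7 and in KSL for 1 of 22. Prg2, the eosinophil major basic protein, read 2.35 and 2.41 in KSL and -0.38 and 5.23 in Gr, and Mcpt8, a basophil protease, 2.07 and 2.21 in KSL and 0.83 and 4.76 in Gr. Both were highest on the array labelled Gr control 2 and lowest on Gr control 1, with the KSL arrays between. Of 17 dendritic cell and MHC class II genes 3 were called higher in KSL and 0 in Gr, against 16.2% and 18.5% of all features. H2-Aa (-0.09), H2-Ab1 (0.80), H2-Eb1 (-0.10) and Cd74 (1.10) were not called. Of 12 stroma and niche genes 3 were called higher in KSL and 3 in Gr. Col1a1 was above background on the Gr arrays only (-0.16 and -1.52), and the niche chemokine Cxcl12 (1.24) was not called. The dendritic count called higher in KSL was 6 without the array labelled Gr control 2, and the stroma count called higher in Gr was 1 without KSL control 1. The part of such cells in the KSL against Gr differences was not tested. The counts called higher in Gr were 4 without KSL control 1 or KSL control 2 for monocyte genes and 1 without KSL control 1, KSL control 2 or Gr control 1 and 3 without the array labelled Gr control 2 for mast cell, basophil and eosinophil genes. The median level of the latter list was -0.05 and 0.10 in KSL and -0.41 and 2.16 in Gr.

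Few cell cycle genes were called. Of 28 genes of G2 and M phase, 1 was called higher in Gr (Racgap1, -1.52) and 0 higher in KSL (median -0.54), while 27 differences were negative. The count called higher in Gr was 0 without any 1 of the control arrays or either KSL Vav-Etv2 array. Mki67, the proliferation antigen Ki-67, read 6.06 and 6.20 in KSL and 6.60 and 7.19 in Gr (difference -0.76, SE 0.36, limma adjusted p = 0.136), and Plk1, a mitotic kinase, 4.76 and 4.77 in KSL and 5.13 and 5.71 in Gr (difference -0.66, SE 0.32, limma adjusted p = 0.145). Of 33 DNA replication genes, 3 were called higher in KSL and 1 in Gr (median 0.83), while 29 differences were positive. The helicase subunit Mcm2 read 4.20 and 4.52 in KSL and 1.77 and 3.57 in Gr (difference 1.69, SE 0.69, limma adjusted p = 0.0964). Neither Pcna (0.41) nor Rrm2 (-0.54) was called. Regulators of cycle entry were called on both sides. Ccnd1 and Ccnd2, D cyclins, lay at 2.04 and 2.37 in KSL and -1.47 and -1.23 in Gr (difference 3.55, SE 0.28, limma adjusted p = 0.000946) and at 3.80 and 3.90 in KSL and -0.22 and 0.22 in Gr (difference 3.85, SE 0.30, limma adjusted p = 0.000925). Among CDK inhibitors, Cdkn1c (2.18) and Cdkn1a (1.50) were higher in KSL, while Cdkn1b (-1.85) and Cdkn2d (-2.84) were higher in Gr. Another Cdkn1a probe, tested by itself, was not called (difference 0.76, limma adjusted p = 0.403 over all probes). The replication count called higher in KSL was 0 without KSL control 1, KSL control 2 or Gr control 1 and 12 without the array labelled Gr control 2, and the count of cycle regulators called higher in Gr was 1 without KSL control 1 and 2 without KSL control 2.

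Genes of ribosome production were called higher in KSL for 14 of 33 MYC and ribosome biogenesis genes and 28 of 42 ribosomal protein genes. Myc lay at 4.11 and 4.04 in KSL and -1.69 and 0.95 in Gr (difference 4.44, SE 0.87, limma adjusted p = 0.0113), and Npm1, a nucleolar chaperone, at 7.69 and 7.83 in KSL and 4.18 and 5.82 in Gr (difference 2.76, SE 0.53, limma adjusted p = 0.0105). Of the biogenesis list 2 were called higher in Gr (median of the list 1.92), and these were the MYC antagonists Mxd1 and Mxi1. Of 42 cytosolic ribosomal protein genes, 28 were called, all higher in KSL, and all 42 differences were positive (median 1.29). Rpl3 lay at 8.78 and 8.74 in KSL and 6.46 and 7.69 in Gr (difference 1.68, SE 0.49, limma adjusted p = 0.0384), and Rps6 at 8.93 and 9.04 in KSL and 7.16 and 8.00 in Gr (difference 1.41, SE 0.36, limma adjusted p = 0.0265). Ribosomal protein genes have many near-identical copies that their probes may also read. The number called moved with the arrays and the scaling: with median scaling 8 were called, with quantile normalization 10, and the count was 0 without KSL control 1 or KSL control 2, 3 without Gr control 1 and 15 without KSL Vav-Etv2 1 or KSL Vav-Etv2 2, while the median stayed between 0.89 and 1.63. The ribosome biogenesis count called higher in KSL was 1 without KSL control 1 or KSL control 2, 3 without Gr control 1, 27 without the array labelled Gr control 2 and 8 without KSL Vav-Etv2 1 or KSL Vav-Etv2 2. Of 21 translation and chaperone genes 6 were called higher in KSL (median 1.04), among them Eef1a1 (1.04) and Hsp90ab1 (1.50). The count called higher in KSL was 0 without KSL control 1, KSL control 2 or Gr control 1, 12 without the array labelled Gr control 2 and 2 without KSL Vav-Etv2 1 or KSL Vav-Etv2 2.

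Energy metabolism was covered by 2 lists. None of 28 subunits of the mitochondrial respiratory chain was called by limma, and 5 had an unadjusted p below 0.05. Their median of 0.09 turned to -0.08 with median scaling, and with quantile normalization 4 were called higher in KSL. Ndufs1, a complex I subunit, read 4.38 and 4.38 in KSL and 4.25 and 4.50 in Gr, and Atp5b, a subunit of ATP synthase, 7.57 and 7.78 in KSL and 7.38 and 7.61 in Gr. Glycolysis and hypoxia genes were called higher in Gr for 18 and in KSL for 2 of 28 (median -1.57). Hk3, the myeloid hexokinase, lay at 3.02 and 2.93 in KSL and 6.85 and 5.95 in Gr (difference -3.42, SE 0.39, limma adjusted p = 0.00229), and Pygl, which releases glucose from glycogen, at 4.72 and 4.86 in KSL and 9.46 and 8.14 in Gr (difference -4.01, SE 0.56, limma adjusted p = 0.00412). The lactate exporter Slc16a3 differed by -4.41, and G6pdx, the entry to the pentose phosphate path that feeds the oxidase, by -3.23. Pfkl (1.81) and Pdk1 (3.62), the kinase that restrains pyruvate entry into mitochondria, were the members called higher in KSL, and Ldha (-0.75) was not called. The probes of Pfkp disagreed: the brightest gave -1.41, and another gave 1.71 (limma adjusted p = 0.0241 over all probes). The glycolysis count called higher in Gr was 6 without KSL control 1 or KSL control 2 and 10 without Gr control 1.

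Of 21 BCL2 family and apoptosis genes, 8 were called higher in Gr and 1 in KSL. The latter was Bcl2 itself, at 3.13 and 3.18 in KSL and -0.24 and 0.29 in Gr (difference 3.13, SE 0.30, limma adjusted p = 0.00152), while the death receptor Fas lay at -2.07 and -1.77 in KSL and 4.03 and 2.60 in Gr (difference -5.23, SE 0.49, limma adjusted p = 0.00150). Mcl1, on which neutrophil survival depends, read 5.77 and 5.90 in KSL and 7.57 and 6.42 in Gr (difference -1.16, SE 0.56, limma adjusted p = 0.147) and was not called by its brightest probe, while another, tested by itself, was (difference -2.35, limma adjusted p = 0.0210 over all probes). Chromatin genes were called higher in KSL for 9 and in Gr for 3 of 29. The de novo DNA methyltransferase Dnmt3b lay at 4.35 and 4.46 in KSL and -1.85 and 0.96 in Gr (difference 4.85, SE 0.95, limma adjusted p = 0.0113), and Tet1 differed by 3.30. Padi4, which citrullinates histones in neutrophil traps, lay at 3.06 and 3.17 in KSL and 7.25 and 5.70 in Gr (difference -3.36, SE 0.66, limma adjusted p = 0.0114), higher in Gr. 

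Homing and adhesion genes were called higher in Gr for 11 and in KSL for 4 of 30. Ccr1 was above background on the Gr arrays only (at least 20.8-fold higher there, limma adjusted p = 0.00239), and Cxcr4, the marrow retention receptor, read 2.33 and 2.51 in KSL and 4.15 and 3.37 in Gr and was not called (-1.34). Cytokine receptors were called on both sides, with 6 called higher in KSL and 11 in Gr of 30: Csf2ra, a GM-CSF receptor chain, lay at 4.48 and 4.80 in KSL and 8.51 and 7.97 in Gr (difference -3.60, SE 0.41, limma adjusted p = 0.00233), against the KSL side of Kit, Flt3 and Il7r. Among 23 ETS factors 1 was called higher in KSL (Erf, 2.30) and 5 in Gr, against 16.2% and 18.5% of all features. Erg (1.43) and Etv6 (0.80) were not called. The median of that list, -0.30, turned to 0.02 with the percentile over probes detected on all arrays. Of 24 Wnt, TGF-beta and BMP genes 6 were called higher in KSL and 3 in Gr. Among them were the Wnt receptor Fzd6 (at least 10.5-fold higher in KSL) and the BMP receptor Acvrl1 (-4.37). The counts called higher in Gr were 2 without KSL control 1 or KSL control 2 and 5 without Gr control 1 for apoptosis genes, 4 without KSL control 1 or KSL control 2 and 7 without Gr control 1 for homing genes, 7 without KSL control 1, KSL control 2 or Gr control 1 for cytokine receptors and 1 without KSL control 1 or KSL control 2 and 2 without Gr control 1 for ETS factors. Those called higher in KSL were 2 without KSL control 1 or KSL control 2 and 5 without Gr control 1 for chromatin genes and 3 without KSL control 1 or KSL control 2 for Wnt, TGF-beta and BMP genes. The lesser counts moved as well: those called higher in KSL were 0 without KSL control 1 or KSL control 2 and 1 without Gr control 1 for homing genes, and those called higher in Gr were 1 without KSL control 1 or Gr control 1 and 0 without KSL control 2 for chromatin genes and 0 without KSL control 1 or KSL control 2 and 1 without Gr control 1 for Wnt, TGF-beta and BMP genes.

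**Figure D4:**
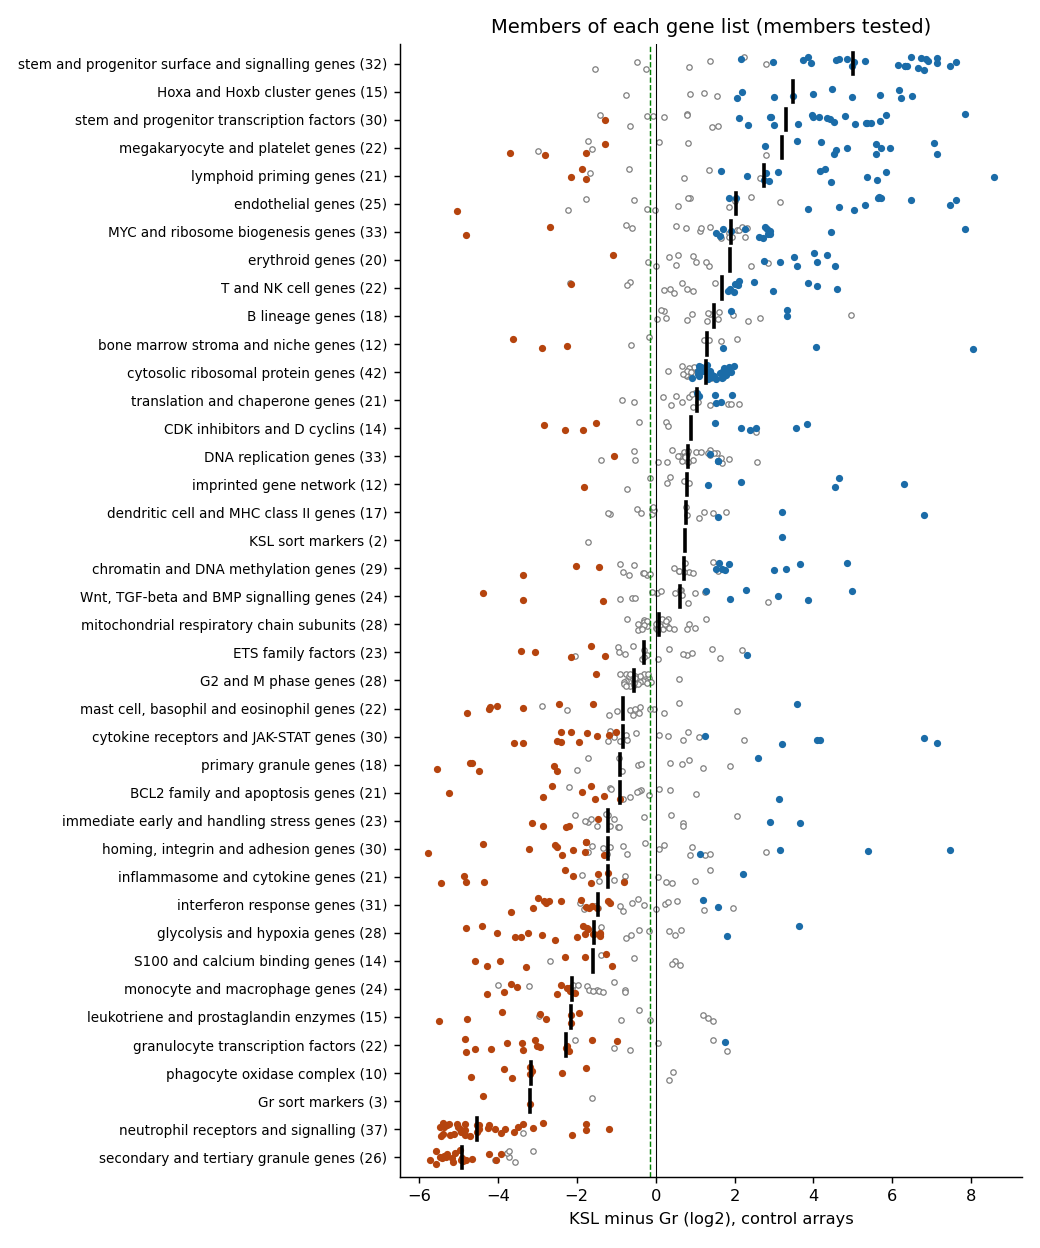
Each point is a tested gene of 1 of 40 lists, placed by KSL minus Gr (log2) on the horizontal axis, filled blue where called higher in KSL, filled red where called higher in Gr and open where not called, with the number tested in parentheses. Black bars are list medians, from -4.92 for secondary and tertiary granule genes to 5.00 for stem and progenitor surface genes, and the green dashed line is the median of all features, -0.13. Vertical scatter within a list carries no value.

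The Gr arrays also differed from each other. All 26 secondary and tertiary granule genes and all 37 neutrophil receptor genes were higher on Gr control 1 than on the array labelled Gr control 2, by medians of 1.43 and 1.18 log2. All 33 DNA replication genes and all 28 G2 and M genes were lower on Gr control 1, with medians of -1.37 and -0.59. 12 of 18 primary granule genes were lower there too (median -1.36), as were 28 of 33 MYC and ribosome biogenesis genes (-1.86). The median over all features was 0.14. Between the Gr arrays of Vav-Etv2 mice, which enter the control differences only through the shared filter and spread, replicate 1 was higher for 26 of 26 secondary granule genes and 37 of 37 receptor genes, and lower for 33 of 33 replication genes. In both genotypes the replicate 1 Gr array carries Xist and the replicate 2 Gr array the Y-linked genes, so sex, sample and this split cannot be told apart. Where a list differs between the Gr arrays, its KSL minus Gr difference depends on which Gr array is read: the primary granule median was -1.80 without Gr control 1 and 0.15 without the array labelled Gr control 2. The KSL arrays were close here: between them 0 primary granule, 0 secondary granule and 0 replication genes lay over 1 log2 apart.

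The same contrast in Vav-Etv2 mice used other arrays, with the spread shared in 1 model. Of the 3770 features called higher in control KSL, 3698 (98.1%) were also higher in Vav-Etv2 KSL and 2072 (55.0%) were called there. Of the 4292 called higher in control Gr, 4244 (98.9%) had the same direction and 2714 (63.2%) were called. As shares of the Vav-Etv2 calls these are 85.6% of 2421 and 84.5% of 3210, where 10.4% and 13.8% of all features were called. The test of the difference between genotypes called 1 feature, 0.00431% of all, a probe known only by the transcript name ENSMUST00000103414. Etv2 lay at -0.55 and -1.29 on the Vav-Etv2 Gr arrays and at -0.54 on the array labelled Gr control 2. Whether that array is a control was not tested, so this count does not show the genotypes to be alike. Kit, at 3.21 in controls and 2.20 in Vav-Etv2 mice, Cd34, at 6.31 and 5.90, Itgb2, at -4.37 and -4.45, and Mmp9, at -5.58 and -6.64, kept their direction. Ly6a, at -1.71 and -2.74, lay on the Gr side in both genotypes and was called in Vav-Etv2 mice (limma adjusted p = 0.0418).

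**Figure D5:**
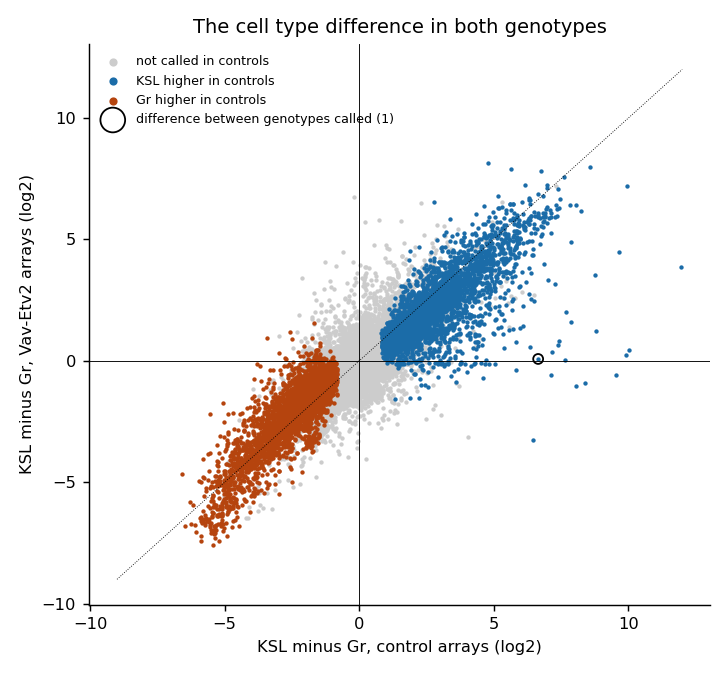
KSL minus Gr (log2) on the control arrays (horizontal axis) and on the Vav-Etv2 arrays (vertical axis) for each of 23226 features, coloured by the call on the control arrays, with the line of equality dotted. Features called in controls lie mostly in the same direction in Vav-Etv2 mice, with 98.1% of the KSL calls and 98.9% of the Gr calls on the same side of 0, and the circle marks the 1 feature called for a difference between genotypes.

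Since the granule and receptor genes moved together, the 250 bases before their starts were read from RefSeq promoters on GRCm38.p6 and searched on both strands for 5 motifs: TTGCNNAA for C/EBP factors, GAGGAAGT for PU.1, AGATAA for GATA factors, TGTGGT for RUNX factors and CACGTG for MYC. These motifs and the promoters below were chosen after the values were seen, and no test was made. TTGCNNAA occurred in 21.2% of the 52 secondary granule and receptor genes that have a promoter in the table (of 63), in 8.89% of 45 of the 62 stem and progenitor genes and in 9.55% of all 27025 promoters. GAGGAAGT occurred in 13.5%, 2.22% and 2.44% in the same order. Over genes called by 4 log2 or more, TTGCNNAA was in 15.5% of 258 genes higher in Gr and in 9.83% of 407 higher in KSL, and GAGGAAGT in 5.81% and 1.47%. Over all called genes with a promoter the shares lay near those of all tested genes: TTGCNNAA was in 8.87% of those higher in Gr, 7.61% of those higher in KSL and 8.07% of the 11843 tested genes that have one, and GAGGAAGT in 3.03%, 1.96% and 2.56%. TGTGGT was in 23.1% of the granule and receptor promoters, 4.44% of the stem and progenitor promoters and 14.2% of all. In the called and tested genes, in the order above, it was in 12.2%, 11.5% and 11.4%. Among genes called by 4 log2 or more, it was in 22.5% of those higher in Gr and 12% of those higher in KSL. CACGTG was in 5.43% and 6.88% of the genes called by 4 log2 or more, and AGATAA in 11.6% and 7.37%, against 6.05% and 10.3% of all promoters and 7.99% and 6.67% of tested genes. No motif contains the letters of another. The windows differ in base composition. Genes called by 4 log2 or more had a median of 4 CG dinucleotides where higher in Gr and 10 where higher in KSL. Over all called genes the medians were 14 and 13, against 14 in all tested genes. The median was 3 in the granule and receptor promoters, against 6 in the stem and progenitor promoters and 6 in all promoters. A match is a description of the letters, not a bound site. Promoters of 3 granule genes with a C/EBP match and of Dntt, of the lymphoid priming list, are shown 5′ to 3′ on the gene's strand, with matches in capitals: Mmp8 at chr9:7558179-7558428 (plus strand), Ngp at chr9:110419558-110419807 (plus strand), Ltf at chr9:111019042-111019291 (plus strand) and Dntt at chr19:41029025-41029274 (plus strand).
Mmp8: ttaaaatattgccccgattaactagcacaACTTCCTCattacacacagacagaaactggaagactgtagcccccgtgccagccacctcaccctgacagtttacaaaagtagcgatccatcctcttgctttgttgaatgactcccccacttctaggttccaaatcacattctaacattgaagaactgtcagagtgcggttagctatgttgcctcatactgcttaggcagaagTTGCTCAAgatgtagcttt
Ngp: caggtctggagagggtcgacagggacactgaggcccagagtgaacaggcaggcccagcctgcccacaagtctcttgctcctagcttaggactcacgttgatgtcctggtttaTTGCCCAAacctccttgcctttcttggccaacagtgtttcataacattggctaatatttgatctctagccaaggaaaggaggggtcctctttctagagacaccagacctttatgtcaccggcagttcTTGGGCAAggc
Ltf: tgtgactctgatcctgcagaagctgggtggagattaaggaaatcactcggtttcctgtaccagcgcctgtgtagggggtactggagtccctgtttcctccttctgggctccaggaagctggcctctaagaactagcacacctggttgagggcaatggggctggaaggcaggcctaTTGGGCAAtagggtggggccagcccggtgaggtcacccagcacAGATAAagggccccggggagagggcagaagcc
Dntt: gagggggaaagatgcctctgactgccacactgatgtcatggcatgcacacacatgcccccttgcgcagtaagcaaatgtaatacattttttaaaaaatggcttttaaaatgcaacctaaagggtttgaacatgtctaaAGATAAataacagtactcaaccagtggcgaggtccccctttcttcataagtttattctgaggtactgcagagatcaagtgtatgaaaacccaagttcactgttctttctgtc

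In Mmp8, the neutrophil collagenase, which lay at 2.41 and 2.61 in KSL and 8.88 and 6.97 in Gr (difference -5.42, SE 1.49, limma adjusted p = 0.0323), the C/EBP match TTGCTCAA begins 19 bases before the start and the PU.1 match ACTTCCTC, on the other strand, 221 bases before it. Ngp has C/EBP matches TTGGGCAA at 11 and TTGCCCAA at 138 bases before the start. Ltf has the C/EBP match TTGGGCAA at 75 bases and AGATAA at 32 bases. Dntt has AGATAA at 112 bases and no match to the C/EBP or PU.1 letters in this window.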

How the data were processed

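Gene expression was measured on 8 Agilent 1-colour (Cy3) arrays of sorted mouse marrow cells, grouped by their labels. The deposited intensity values were made with Agilent Feature Extraction 10.7.3.1, per the file headers (10.7 per the submitters' processing notes): background was subtracted and the signal detrended, and no array was scaled to another. The quality marks used here (well above background, outlier, saturated) are also those deposited, and no spot of these arrays was marked saturated. Probe positions are on mm9, per the file headers. The deposited table of values for the whole series was not used here.

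Of 62976 spots, 59305 were not controls. Outlier spots were left out, spots of 1 probe were averaged, and 20 of 55681 probes lost all spots on at least 1 array. Signals were taken as log2 minus the array's 75th percentile. The filter kept 32354 probes that stood well above background on 2 or more arrays out of 8, and the brightest probe stood for each gene, which gave 23226 features. Over the 55681 probes, 26682 were named by transcript accession through a RefSeq table, 2540 by current symbol and 474 by an older one, and 25985 keep the name in the file.

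Differences were fitted with limma 3.58.1 in R 4.3.3 over all 4 groups, which share 1 spread (4 residual and 2.77 prior degrees of freedom), and p-values were adjusted over all features (Benjamini-Hochberg). Where no array of a group was above background, the fold is a bound: the higher group's mean over the mean, per array, of the higher of the probe's own signal and the lowest signal well above background. In the 40 gene lists, 826 of 891 genes were tested. Genes named are the 12 largest called differences in each direction with no overlap between groups, the sort markers, the first 4 of each list as written, the 4 others with the smallest p and the one nearest to 0. Outside this rule, and chosen after their values were seen, are Alas2, Cd9, Chil3, Clec11a, Csf2rb2, Hcar2, Lyve1, Mmp8, Mrgpra2a, Mrgpra2b, Ngp, Notch1, Pdk1, Pfkp, Pira2, Pirb, Rap1b, Retnlg, Runx1, Runx3, Slc16a3, Stfa1, Stfa2, Stfa2l1, Stfa3 and Thbs1. The groups compared and the lists were chosen with earlier results of these data known. The alternatives, on background, scaling, filter, floor, probes, spread, samples and the replicate number, are in the closing section. The number of arrays, 2 in a group, limits the precision. Values of a few list genes are not reported here.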

Additional observations from a re-analysis of the deposited data

Results flagged for a closer look

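One feature differed between genotypes in its KSL minus Gr difference. The probe known as ENSMUST00000103414, at chr12:114509504-114509563 on mm9, lay at 1.06 and 1.34 on the KSL control arrays and was not above background on any other array: -5.56 and -5.54 in Vav-Etv2 KSL, -5.46 and -5.44 in control Gr and -5.68 and -5.58 in Vav-Etv2 Gr. KSL minus Gr was 6.65 in controls, where KSL was at least 48.1-fold higher, and 0.08 in Vav-Etv2 mice, a difference of 6.57 (SE 0.38, limma adjusted p = 0.0159). Both KSL control arrays were high, and the arrays of all other groups lay at background. This was the 1 feature called of 23226, and the alternatives under which it was lost are given with the dependence on the processing. The transcript name was not matched to a gene here.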

How the results depend on the processing

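In controls, the number of features called by limma lay between 5654 and 11037 under the other background corrections, scalings, filters, probe choices and spread models, against 8062 as reported. The numbers tested differ: 5654 were of 36075 features with no filter, 11037 of 32354 probes tested each by itself, and 8062 of 23226 features. No called feature changed direction under these alternatives other than 21 with signals raised to the lowest one above background. The counts moved by over 1.5 times where arrays were left out. Leaving out 1 array at a time gave 1160 to 4670 higher in KSL and 1025 to 4713 higher in Gr in controls, and 1108 to 3485 and 1091 to 3794 in Vav-Etv2 mice. With the replicate 1 Gr arrays only, 6040 features were called higher in control KSL, 5562 in Vav-Etv2 KSL and 5157 in Vav-Etv2 Gr. In Vav-Etv2 mice 3755 were called higher in KSL with the percentile over probes above background on all arrays, and 1502 with only such probes tested. The number called for a difference between genotypes was 1 as reported, with 906 features at an unadjusted p below 0.05. It was 4 with normexp, 2 with median scaling and 5 with quantile normalization. It was 0 by limma with no filter, with the filter on all 8 arrays, with the floor, with an intensity trend, with the replicate block, with the replicate 1 Gr arrays only and without any 1 array, and it could not be fitted with only the 4 control arrays. The cause of these moves was not tested, other than that leaving out arrays leaves fewer samples.

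For the genes named in the text, 4212 of the values under these alternatives kept both direction and side of the threshold, 276 kept the direction but were no longer called, 117 became called and 40 turned direction. The latter belong to genes that were not called as reported. With normexp background correction, KSL minus Gr turned to 0.047 for Kdr and -0.028 for Pax5. With median scaling, KSL minus Gr turned to -0.11 for Cebpa, -0.16 for Ndufs1 and -0.039 for Pax5. With quantile normalization, KSL minus Gr turned to 0.0035 for H2-Aa, 0.33 for H2-Eb1, 0.37 for Kdr, 0.17 for Lyl1 and 0.13 for Prg2. With the percentile over probes above background on all arrays, KSL minus Gr turned to 0.24 for H2-Aa, 0.23 for H2-Eb1, 0.31 for Kdr, 0.27 for Lyl1 and 0.28 for Prg2. With the replicate 1 Gr arrays only, KSL minus Gr turned to 0.65 for Elane, -0.40 for H19, 0.031 for H2-Aa, 1.31 for Mcpt8, -0.39 for Pax5, 2.77 for Prg2 and 1.22 for Prtn3. Leaving out 1 array at a time gave differences of -0.42 to 0.53 for Cebpa, -0.70 to 2.39 for Ctsg, -2.12 to 0.22 for Egr1, -2.51 to 0.65 for Elane, -0.40 to 0.95 for H19, -0.21 to 0.031 for H2-Aa, -0.58 to 0.55 for Kdr, -2.62 to 1.31 for Mcpt8, -0.48 to 1.83 for Mpo, -0.11 to 0.13 for Ndufs1, -0.39 to 0.64 for Pax5, -0.29 to 1.12 for Pcna, -2.85 to 2.77 for Prg2 and -2.13 to 1.22 for Prtn3. The cause of these turns was not tested.

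The labels number the replicates of each group, but do not say that a number marks a shared animal, and there are only 2 pairs. Deviations of same-numbered arrays from their group means correlated at 0.133 between KSL control and Gr control and at 0.658 between the Gr groups, across genes, and the KSL and Gr arrays of number 2 differ in sex, so the numbers were not taken to pair the samples. With the replicate number as a block, 4407 features were called higher in KSL and 4974 higher in Gr, and 8063 in all with only the 4 control arrays. A group of 2 arrays and the signal over background limit precision: genes under background in a group carry bounds and no order.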

Other observations

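Of the genes in the 40 lists, 238 had further probes that passed the filter, 321 probes in all. Of these, 290 gave KSL minus Gr the same direction as the brightest probe, and 26 genes had at least 1 probe of the opposite direction. In 1 gene, Pfkp, probes of opposite direction were both called.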
